A study of Oryza sativa with 8 samples.

Results

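Kinesins are motor proteins that walk along microtubules, and plants have many of them. They build and position the mitotic spindle, carry material to the phragmoplast, the structure that lays down the new cell wall between daughter cells, and move or anchor cargo in cells that no longer divide. Members of the kinesin-14 family mostly move toward the minus end of the microtubule, unlike most other kinesins, and the family is large in plants. Because many kinesin transcripts accumulate only around mitosis, tissues rich in dividing cells, such as young inflorescences, are known to hold more of them than mature leaves.

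The members are the rice genes named KIN followed by digits and a letter, where the digits give the kinesin family. The RefSeq gene table names 35 such genes, and 32 of them were paired with a probe set that the platform annotation assigns to 1 gene, out of 17905 genes measured in this way. KIN12F, KIN14D and KIN14P had no such probe set and are not analysed here. The 32 measured genes comprise 1 kinesin-4, 2 kinesin-5, 7 kinesin-7, 1 kinesin-8, 3 kinesin-10, 2 kinesin-12, 2 kinesin-13 and 14 kinesin-14 genes. Each gene is represented by its probe set with the highest mean over 8 arrays, and 29 of the 32 had a single probe set. KIN8B, KIN13B and KIN14K are read by probe sets with the suffix x_at, in which some probes can also match other transcripts.

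The series used a rice Affymetrix array on the cultivar Hejiang19, the wild type, and on OX-Ghd7HJ19, transgenic plants of the same background that overexpress Ghd7, a repressor of flowering in long days. Both genotypes were field-grown and sampled 3 hours after dawn, as young leaves of 35-day-old vegetative plants and as developing panicles of 0.1 cm. Each of the 4 groups has 2 arrays labelled as biological replicates, and neither the promoter of the transgene nor the number of transgenic lines is given in the sources used here. The free-text description of every array speaks of flag leaves at heading, whereas titles and tissue tags give the 2 tissues above, which the groups follow.

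Values are the authors' log2 expression values (RMA). The median SD between replicates over the kinesin genes was 0.17 (wild type) and 0.12 (overexpressor) in leaves and 0.03 (wild type) and 0.09 (overexpressor) in panicles. Since arrays of leaves had medians of 4.49 to 4.53 and those of panicles 6.13 to 6.15, levels are set across tissues as percentile ranks within an array over 57194 probe sets, and tissue differences were tested after quantile normalization of the 8 arrays to one distribution. A percentile under 50 may be background. The labelled tissues matched their markers: 6 photosynthesis genes had mean percentiles in the wild type of 99.8 to 100 for leaves and 55.5 to 81.5 for panicles. Of 9 meristem and floral markers 8 were higher in wild-type panicles, among them OSH1 at percentile 98.9 against 16.7 in leaves. LOG lay the other way, at 73.1 in panicles and 98.5 in leaves.

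The first comparison set young panicles beside young leaves. Of the 32 kinesin genes, 29 ranked higher on all 4 panicle arrays than on all 4 leaf arrays, and 3 ranked lower on all 4. Across all probe sets 35.5% ranked higher in this way and 41.1% lower, and across all genes with 1 probe set each 50.4% and 34.7%. The median percentile of the kinesin genes in the wild type was 51.1 on leaf arrays and 90.5 on panicle arrays, beside 76.5 and 78.0 for all genes. In wild-type panicles 16 of the 32 had a percentile of 90 or more, against 25.0% of all genes. The wild-type panicle rank exceeded the leaf rank by 40 percentile points or more for 15 of the 32, where 6.01% of all probe sets and 9.25% of all genes did so. Below the array median lay 16 of the 32 in leaves of the wild type and 1, KIN14B, in its panicles. In whole tissue, fewer cells of a type and less RNA per cell cannot be told apart.

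**Figure D1:**
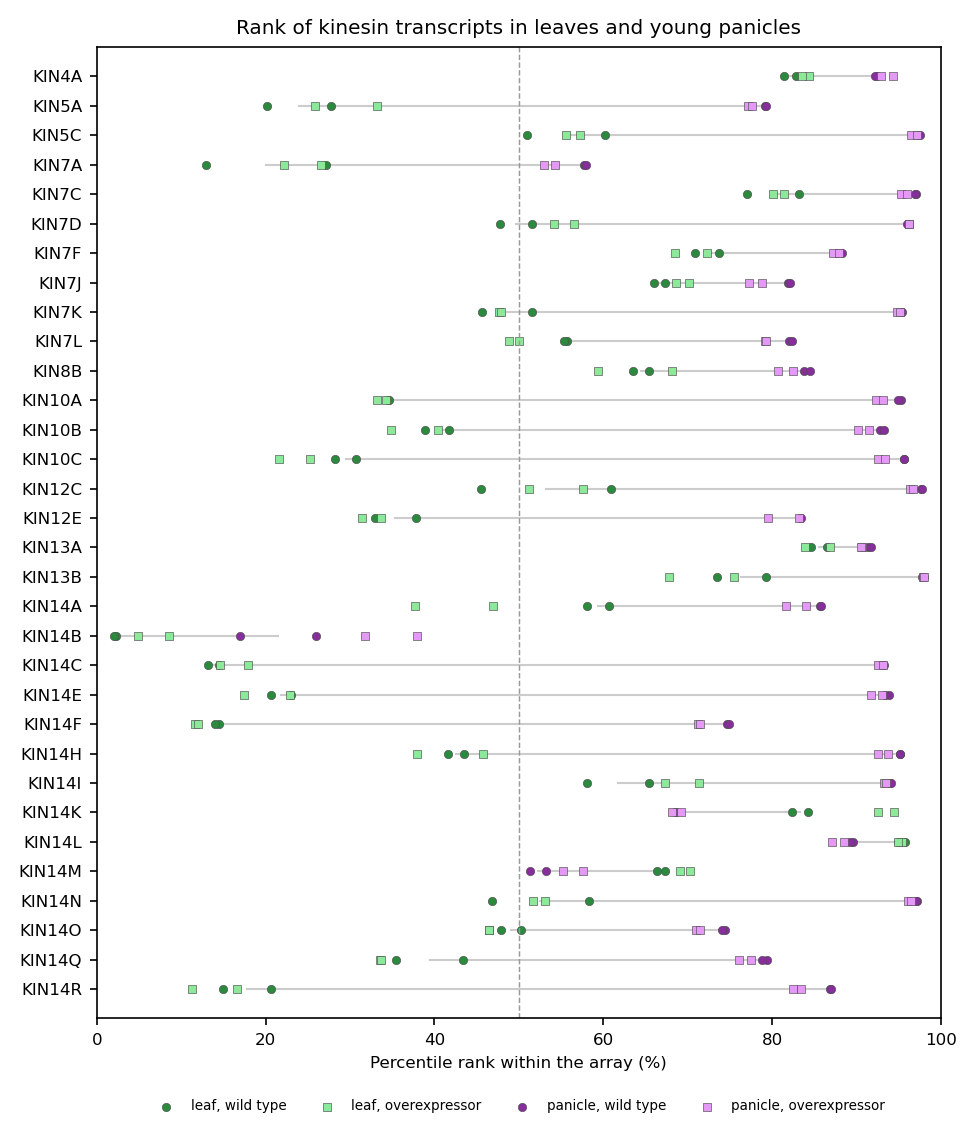
Percentile rank within each array (x axis, in percent) for the 32 kinesin genes (y axis, ordered by family), with 1 point per array and a line joining the wild-type means of the tissues. In 29 genes all panicle points lie right of all leaf points, and in KIN14K, KIN14L and KIN14M they lie left. The dashed line marks the array median.

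By limma, on quantile-normalized values, the same 29 genes were higher in wild-type panicles and 3 were lower, each with adjusted p under 0.05. That test called 36.0% of all probe sets higher and 41.0% lower, 76.9% in all. Of all 17905 genes with 1 probe set each, 8996 were called higher and 6293 lower. The median panicle-minus-leaf difference over the kinesin genes was 4.06 on the log2 scale, against 0.36 over all genes and -0.09 over all probe sets. In the overexpressor the test also gave 29 higher and 3 lower (35.5% and 41.2% of all probe sets, 76.6% in all), with a median of 3.91. Of all genes 9113 were called higher there and 6244 lower.

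Among the kinesins of the spindle, KIN5C, of the kinesin-5 family whose members push spindle poles apart, read 4.54 and 5.13 (wild type) and 4.96 and 4.86 (overexpressor) in leaves, and 12.54 and 12.58 (wild type) and 12.27 and 12.45 (overexpressor) in panicles. Its wild-type percentile went from 55.6 in leaves to 97.4 in panicles, one of the 3 highest panicle ranks of the family members. The other kinesin-5, KIN5A, went from 24.0 to 79.2.

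Cytokinesis is the task of several other families. KIN12C belongs to kinesin-12, whose Arabidopsis members act at the phragmoplast and the division plane. It read 4.24 and 5.19 (wild type) and 4.97 and 4.60 (overexpressor) in leaves, and 12.64 and 12.71 (wild type) and 12.25 and 12.31 (overexpressor) in panicles. Thus KIN12C lay near the middle of the leaf arrays and at percentile 97.7 in wild-type panicles. KIN12E went from percentile 35.4 to 83.4. KIN7A, which carries the synonym OsNACK after the tobacco NACK kinesin that activates a MAP kinase cascade in cytokinesis, had one of the 3 lowest panicle ranks. KIN7A read 2.62 and 3.30 (wild type) and 3.30 and 3.11 (overexpressor) in leaves, and 6.85 and 6.88 (wild type) and 6.39 and 6.52 (overexpressor) in panicles. Its wild-type percentile was 20.1 in leaves and 57.9 in panicles. The remaining kinesin-7 genes (KIN7C, KIN7D, KIN7F, KIN7J, KIN7K and KIN7L) ranked in the wild type between 48.6 and 80.1 on leaf arrays and between 82.0 and 96.9 on panicle arrays.

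All 3 kinesin-10 genes shared low leaf ranks and high panicle ranks. KIN10A, known in rice as STD1 from a stemless dwarf mutant with defective cell division, went from percentile 34.6 to 95.1, KIN10B from 40.3 to 93.1 and KIN10C from 29.5 to 95.6. KIN10C read 3.34 and 3.48 (wild type) and 3.24 and 3.08 (overexpressor) in leaves, and 12.08 and 12.09 (wild type) and 11.50 and 11.62 (overexpressor) in panicles. With a difference of 6.81 ± 0.12 (log2 ± SE, limma, adjusted p = 5.44e-10), it was among the 3 largest panicle-over-leaf differences of the 32 genes. Its leaf values lay below the array median and may be background.

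The kinesin-4, kinesin-8 and kinesin-13 genes differed among themselves. KIN13A, known in rice as SRS3 from a small and round seed mutant with short cells, read 7.58 and 7.86 (wild type) and 7.85 and 7.40 (overexpressor) in leaves, and 11.34 and 11.39 (wild type) and 11.22 and 11.18 (overexpressor) in panicles. Its percentiles of 85.6 in leaves and 91.5 in panicles differed by 5.99 points, and a second probe set of KIN13A gave a tissue difference of 0.22 with adjusted p = 0.269 by limma, so the tissue call of KIN13A rests on 1 probe set. KIN4A, known in rice as GDD1 and needed for cell elongation, was likewise high in both tissues, at 82.1 and 92.3. KIN13B, of the kinesin-13 family whose animal members take microtubules apart, read 6.21 and 6.85 (wild type) and 6.38 and 5.67 (overexpressor) in leaves, and 12.71 and 12.76 (wild type) and 12.73 and 12.77 (overexpressor) in panicles. At 97.9 KIN13B had the highest percentile of the 32 genes in wild-type panicles. KIN8B, the only kinesin-8 measured, went from 64.5 to 84.1, but a second KIN8B probe set lay at 2.52 and 10.6.

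The kinesin-14 genes covered the widest range of any family, in the wild type from percentile 2.19 to 95.3 for leaves and from 21.5 to 97.1 for panicles. KIN14C read 2.69 and 2.63 (wild type) and 2.88 and 2.74 (overexpressor) in leaves, and 11.63 and 11.58 (wild type) and 11.51 and 11.58 (overexpressor) in panicles. KIN14E read 2.97 and 3.11 (wild type) and 3.13 and 2.89 (overexpressor) in leaves, and 11.73 and 11.65 (wild type) and 11.37 and 11.57 (overexpressor) in panicles. These genes had the other large tissue differences, of 6.95 ± 0.12 for KIN14C (limma, adjusted p = 4.12e-10) and 6.69 ± 0.14 for KIN14E (limma, adjusted p = 9.88e-10), again with leaf values that may be background. KIN14B read 2.02 and 2.01 (wild type) and 2.42 and 2.22 (overexpressor) in leaves, and 4.64 and 4.25 (wild type) and 5.29 and 4.99 (overexpressor) in panicles. KIN14B was thus below the array median on every array, and its level may be background throughout. KIN14N at 97.1, KIN14H at 95.2 and KIN14I at 94.1 had high ranks in wild-type panicles. KIN14I is the calmodulin-binding kinesin KCBP. KIN14Q, the kinesin OsKCH1 that also binds actin, went from 39.4 to 79.1, KIN14A from 59.4 to 85.7, KIN14O from 49.1 to 74.3 and KIN14R from 17.8 to 86.9.

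The 3 genes that ranked lower in panicles, KIN14K, KIN14L and KIN14M, were all kinesin-14 genes. For KIN14K this holds for its 2 x_at probe sets, while its remaining, dim probe set went from percentile 5.23 in leaves to 22.8 in panicles, a difference of 0.86 (limma, adjusted p = 0.00116). KIN14L read 9.62 and 9.87 (wild type) and 9.75 and 9.58 (overexpressor) in leaves, and 11.08 and 11.03 (wild type) and 10.75 and 10.91 (overexpressor) in panicles. At percentile 95.3 KIN14L had the highest leaf rank of the 32 genes, and it lay at 89.4 in wild-type panicles. KIN14M read 5.65 and 5.58 (wild type) and 5.77 and 5.87 (overexpressor) in leaves, and 6.24 and 6.40 (wild type) and 6.60 and 6.83 (overexpressor) in panicles. KIN14M lay at 66.8 in leaves and 52.3 in panicles, and KIN14K at 83.4 and 68.6. On quantile-normalized values the wild-type panicle-minus-leaf difference was -1.82 ± 0.16 for KIN14K, -1.19 ± 0.13 for KIN14L and -1.33 ± 0.13 for KIN14M (limma, adjusted p = 6.50e-06, 3.66e-05 and 1.05e-05), but on the values as deposited, where the median over all probe sets was shifted by 1.58 toward panicles, these became 0.89, 1.31 and 0.71. Relative to that shift they were -0.69, -0.27 and -0.88.

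The second comparison asked how the overexpressor differed from wild type in young leaves. KIN14K rose 3.49-fold and KIN14A fell, and the remaining 30 kinesin genes did not pass the test. Of all probe sets, 1.37% passed as higher and 3.05% as lower, 4.42% in all, so 1 call in each direction among 32 genes is near the background. The median change over the kinesin genes was -0.0036 on the log2 scale, against -0.02 over all genes and 0.03 over all probe sets. Both transgenic arrays lay above both wild-type arrays for 8 genes and below for 6, where the shares were 25.2% and 18.3% of all probe sets and 20.7% and 27.5% of all genes. Of the 32 estimates 16 were below 0, beside 43.4% of all probe sets and 9564 of all 17905 genes.

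KIN14K read 7.53 and 7.25 (wild type) and 8.93 and 9.45 (overexpressor) in leaves, and 8.28 and 8.27 (wild type) and 8.22 and 8.33 (overexpressor) in panicles. The leaf groups did not overlap, and the panicle groups did. The change was 1.80 ± 0.18 in leaves (log2 ± SE, limma, adjusted p = 8.78e-04) and -0.00618 ± 0.18 in panicles, where the 95% interval ran from -0.41 to 0.39. The difference between these effects passed its own test, at -1.81 ± 0.25 (limma, adjusted p = 0.00618), and KIN14K was the one kinesin gene that did so, against 3.84% of all probe sets (2.10% as higher and 1.74% as lower). Its percentile went from 83.4 to 93.5 in leaves.

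KIN14K has 3 probe sets, and they do not read alike. A second one, also of the x_at kind, read 6.72 and 6.78 (wild type) and 7.84 and 8.29 (overexpressor) in leaves, a rise of 1.31 ± 0.15 (limma, adjusted p = 0.00203). Its difference between tissues was -1.18 (limma, adjusted p = 0.0206). The third, with the plain suffix at, read 2.29 and 2.14 (wild type) and 2.26 and 2.33 (overexpressor) in leaves, at percentiles 5.23 and 6.23, with a change of 0.08 (limma, adjusted p = 0.880). The rise therefore appeared in both x_at probe sets and not in the dim one, and which of them reports KIN14K was not tested.

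KIN14A read 4.99 and 5.18 (wild type) and 4.35 and 3.87 (overexpressor) in leaves, and 10.58 and 10.60 (wild type) and 10.08 and 10.34 (overexpressor) in panicles. In both tissues the transgenic arrays lay below the wild-type arrays. The leaf change was -0.97 ± 0.17 (log2 ± SE, limma, adjusted p = 0.0146), or 1.96-fold, and the transgenic leaf value, at percentile 42.3, was below the array median and may be background. In panicles the change was -0.38 ± 0.17 (limma, adjusted p = 0.337), and the difference between the tissues was 0.59 (limma, adjusted p = 0.254). The leaf call of KIN14A was lost without wild-type leaf replicate 2 (limma, adjusted p = 0.0824), without transgenic leaf replicate 2 (0.0907) and when the 4 leaf arrays alone were fitted (0.127).

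Other kinesin genes with an unadjusted p under 0.05 in leaves were KIN14I at 0.54 ± 0.18, KIN7D at 0.36 ± 0.12 and KIN7L at -0.33 ± 0.11, none of which passed after adjustment by limma (adjusted p = 0.148, 0.167 and 0.152). With KIN14K and KIN14A this made 3 higher and 2 lower, beside 8.01% and 8.84% of all probe sets. Of all 17905 genes 1679 were higher and 2930 lower by that measure. KIN14I passed as higher without wild-type leaf replicate 1. The other 27 genes had changes between -0.50 (KIN13B) and 0.32 (KIN5A). By median SD over the kinesin genes (0.17) the wild-type leaf replicates differed more than the other pairs. In that pair replicate 2 exceeded replicate 1 in 22 of the 32 genes (53.1% of all probe sets). It did so by more than 0.5 in 6 of them (3.93% of all probe sets). Those 6 were KIN5C, KIN7A, KIN7C, KIN12C, KIN13B and KIN14N.

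**Figure D2:**
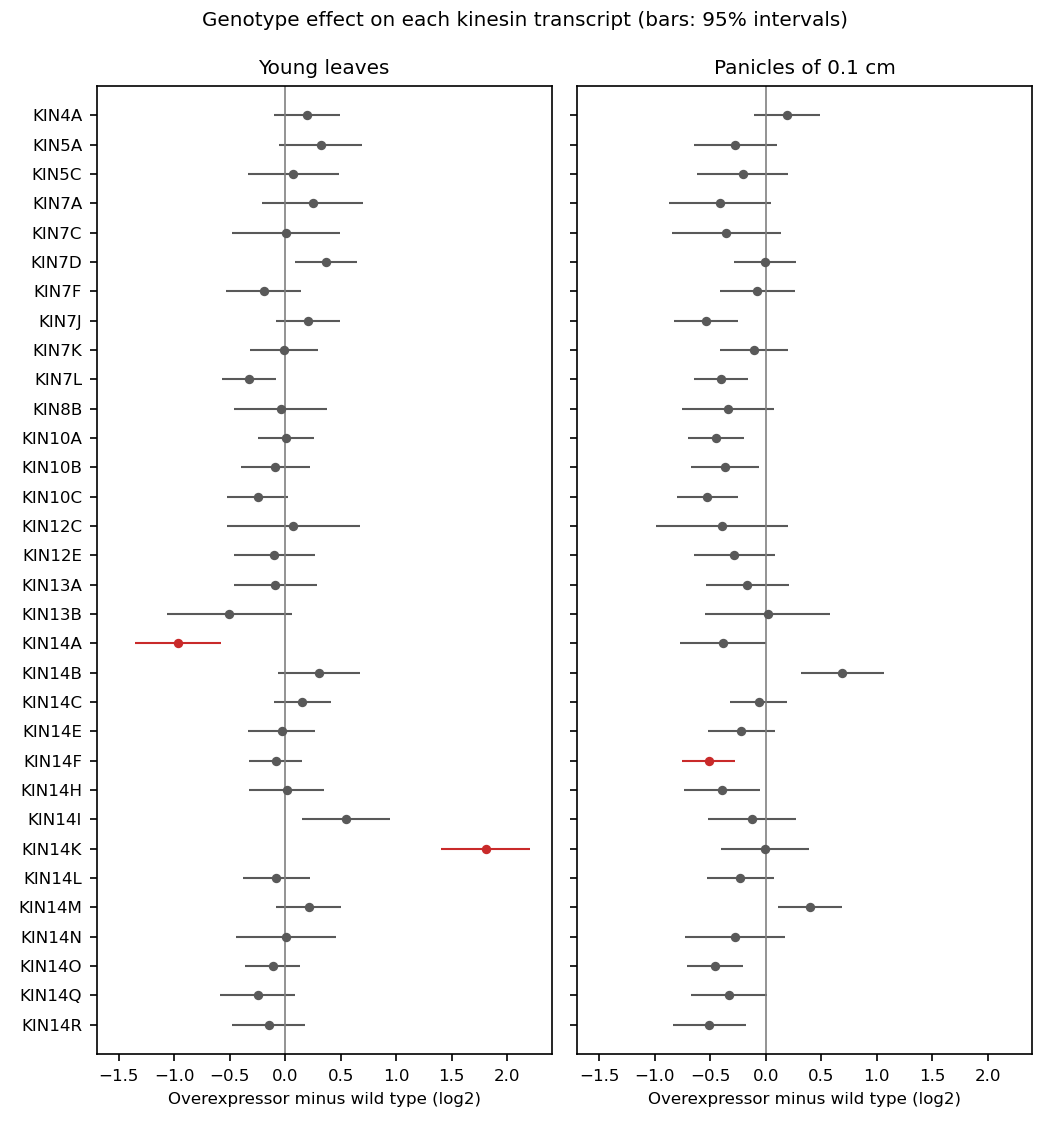
Genotype effect (overexpressor minus wild type, log2; x axes) on the 32 kinesin genes in leaves (left) and panicles (right), with 95% intervals from limma and 2 arrays per group. Red marks KIN14K and KIN14A in leaves and KIN14F in panicles, which passed at an adjusted p under 0.05. In panicles 28 of the 32 points lie left of 0.

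In panicles of 0.1 cm most kinesin transcripts were slightly lower in the overexpressor, although a single one passed the test. Both transgenic arrays lay below both wild-type arrays for 26 of the 32 genes and above them for 3, where the shares were 24.0% and 27.3% of all probe sets and 31.3% and 30.1% of all genes. The 3 genes above were KIN4A, KIN14B and KIN14M, and those whose arrays overlapped were KIN7D, KIN13B and KIN14K. The median change was -0.28 on the log2 scale, against -0.0018 over all genes, 0.02 over all probe sets and -0.0064 over the 28555 probe sets above the array median in wild-type panicles. Of the 32 estimates 28 were below 0, where 46.4% of all probe sets and 9041 of all 17905 genes were. The genes share arrays, so these counts describe 2 transgenic and 2 wild-type arrays and carry no test of the group. Transgenic panicle replicates also differed mostly in one direction. Replicate 2 exceeded replicate 1 in 26 of the 32 genes, with a median difference of 0.10. Of all 57194 probe sets 29254 did so, and of all 17905 genes 8092. In wild-type panicles replicate 2 was the higher in 20 of the 32 genes, with a median difference of 0.02.

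**Figure D3:**
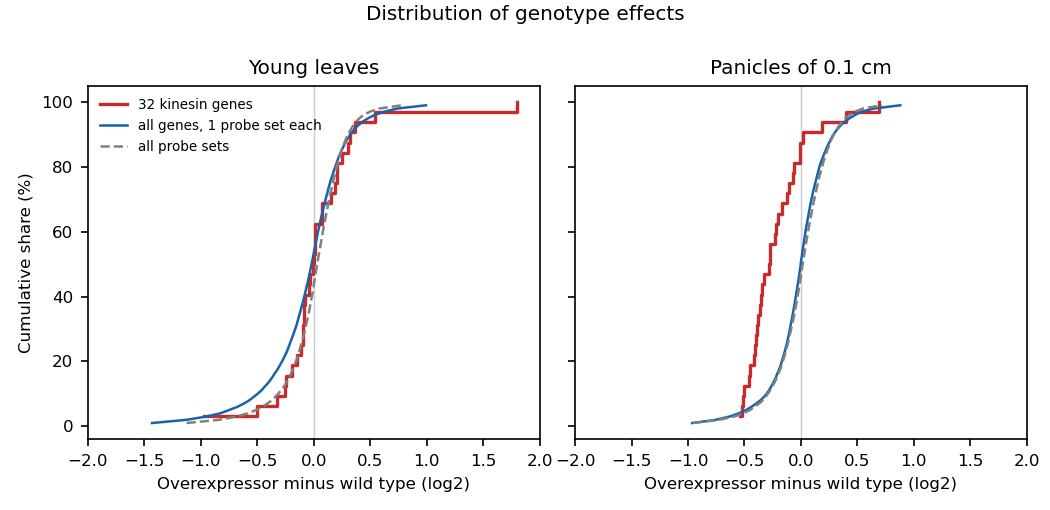
Cumulative share (y axes, in percent) of genotype effects (overexpressor minus wild type, log2; x axes) for the 32 kinesin genes, all genes with 1 probe set each, and all probe sets. In leaves the curves cross near 0, and in panicles the kinesin curve lies left of the others, with a median of -0.28.

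KIN14F was the kinesin gene that fell in panicles. KIN14F read 2.69 and 2.67 (wild type) and 2.58 and 2.61 (overexpressor) in leaves, and 9.16 and 9.18 (wild type) and 8.66 and 8.66 (overexpressor) in panicles. The panicle replicates lay close together and the groups did not overlap. The change was -0.51 ± 0.11 (log2 ± SE, limma, adjusted p = 0.0380), or 1.43-fold, where 1.84% of all probe sets passed as lower and 1.05% as higher, 2.89% in all. This call was lost without either transgenic leaf array (limma, adjusted p = 0.0642 in both cases) or any of the 4 panicle arrays (0.102 to 0.272), after quantile normalization again (0.0974) and with only the panicle arrays (0.0742). In leaves, at percentiles of 14.2 and 11.8, KIN14F may be background, which limits what fall could be seen. Its leaf change was -0.09 ± 0.11 (limma, adjusted p = 0.761).

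By unadjusted p under 0.05, 9 kinesin genes were lower in transgenic panicles and 2 were higher, against 7.75% and 7.51% of all probe sets. Of all 17905 genes 1517 were lower and 1385 higher by that measure. Beside KIN14F the lower ones were KIN7J at -0.54 ± 0.13, KIN10C at -0.53 ± 0.12, KIN14R at -0.51 ± 0.14, KIN14O at -0.46 ± 0.11, KIN10A at -0.45 ± 0.11, KIN7L at -0.40 ± 0.11, KIN14H at -0.39 ± 0.15 and KIN10B at -0.37 ± 0.14 (log2 ± SE, limma, adjusted p = 0.0570 to 0.252). All 3 kinesin-10 genes were among them. The higher ones were KIN14B at 0.69 ± 0.16 and KIN14M at 0.40 ± 0.13 (limma, adjusted p = 0.0642 and 0.168), which also had the 2 lowest percentiles of the kinesin-14 genes in wild-type panicles. With 1 probe set per gene in the adjustment, KIN10A, KIN10C and KIN14O passed with KIN14F. KIN10C also passed with array medians set equal and, in place of KIN14F, after quantile normalization again, and KIN10C and KIN14O with a filter on dim probe sets. With array weights KIN7J, KIN7L, KIN10A, KIN10C and KIN14O passed as lower and KIN14B as higher, beside KIN14F.

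By family, the median panicle change was -0.45 for kinesin-10, -0.35 for kinesin-7, -0.34 for kinesin-12, -0.24 for kinesin-5, -0.25 for kinesin-14 and -0.07 for kinesin-13. KIN4A changed by 0.19 ± 0.13 and KIN8B by -0.34 ± 0.18, while the second, dim probe set of KIN8B gave 0.30. Genes with high panicle ranks were not uniformly lower: KIN13B at 0.02 ± 0.25, KIN7D at -0.00497 ± 0.12 and KIN14C at -0.06 ± 0.11 had estimates near 0, and their intervals ran from -0.55 to 0.58, from -0.29 to 0.28 and from -0.32 to 0.19. KIN12C changed by -0.39 ± 0.26, KIN7A by -0.41 ± 0.20, KIN14A by -0.38 ± 0.17, KIN7C by -0.35 ± 0.22 and KIN14Q by -0.33 ± 0.15. The remaining changes lay between -0.28 (KIN12E) and -0.07 (KIN7F). None of the genes in this paragraph passed the test by limma.

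**Figure D4:**
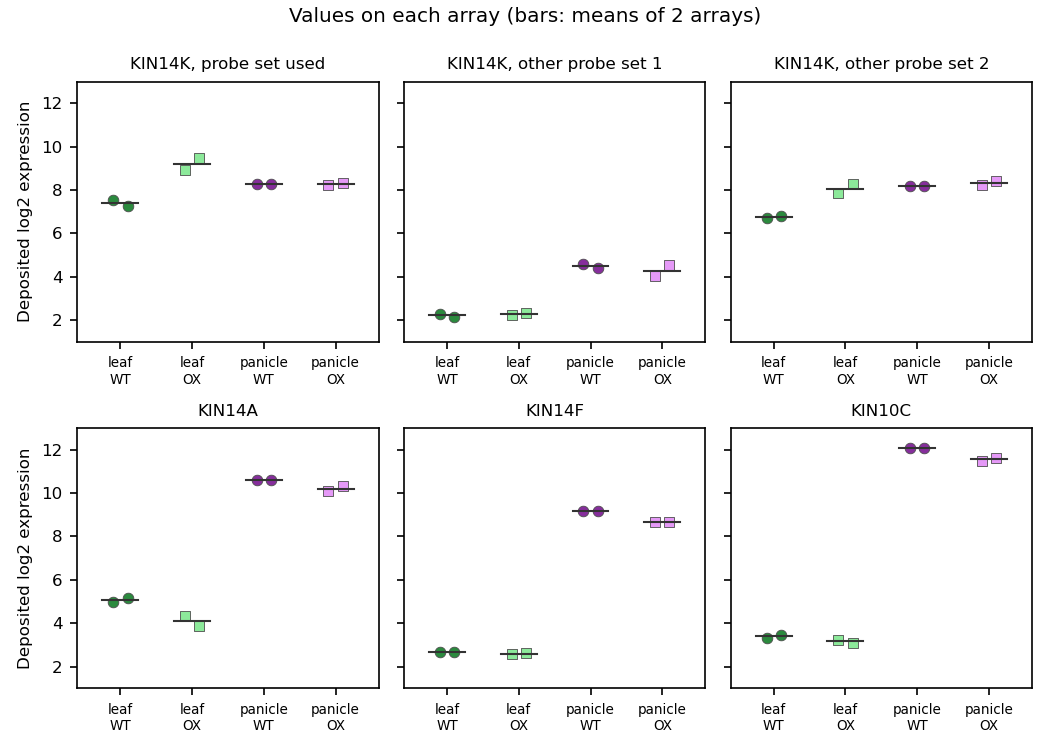
Deposited log2 expression (y axes) on each of the 8 arrays for the 3 probe sets of KIN14K, and for KIN14A, KIN14F and KIN10C (WT, wild type; OX, overexpressor; bars, means of 2 arrays). KIN14K is higher in transgenic leaves in the probe set used and in the second of the others, KIN14A is lower in transgenic leaves, and KIN14F and KIN10C are lower in transgenic panicles.

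The 6 measured markers of dividing cells also read lower in transgenic panicles. For each of them (CDKB2-1, CYCB1-1, CYCB1-3, CYCB2-1, CYCB2-2 and PCNA) both transgenic panicle arrays lay below both wild-type arrays. The shares lying below in this way were 24.0% of all probe sets and 31.3% of all genes. The mean log2 level of the 6 was 12.16 and 12.10 on the wild-type panicle arrays and 11.80 and 11.83 on the transgenic ones. None of the 6 passed the test by limma, and their median change was -0.32. An unadjusted p under 0.05 was found for 3 of them as lower, beside 7.75% of all probe sets. Among all 8 measured cyclins of the A and B type and CDKB genes, which share 5 genes with these 6, both transgenic arrays lay below for 7. They lay above for CYCA1-4, whose change was 0.12, as they did for 27.3% of all probe sets and 30.1% of all genes. In wild-type panicles the 6 ranked between 74.2 and 99.5, so none was at background. Their part in the lower kinesin values was not tested. In leaves their median change was 0.0004, with none called and 3 of the 6 estimates below 0. CYCB1-1 came closest to the threshold there, at -0.64 ± 0.15 (log2 ± SE, limma, adjusted p = 0.0501). In wild-type leaves 4 of the 6 lay below the array median and may be background, which limits what falls could be seen.

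Among 11 tubulin genes, whose products, apart from the gamma-tubulin TUBG2, form the microtubule track, none passed in panicles. The median change was -0.10, and 8 had both transgenic arrays below both wild-type arrays. Of all probe sets 24.0% lay below in this way, and of all genes 31.3%. In leaves, where 1.37% of all probe sets passed as higher and 3.05% as lower, TUB2, a beta-tubulin, fell by 0.99 (limma, adjusted p = 0.00462). The other 10 did not pass. Of 23 cell cycle genes (cyclins A, B and D, CDKs of the A and B type and KRP inhibitors) none passed in panicles, the median change was -0.15, and 14 had both transgenic arrays below, beside the same shares. In leaves CYCD4-2 rose by 0.74 and CYCD5-3 by 0.50, and KRP6, a CDK inhibitor, fell by 0.99 (limma, adjusted p = 0.0332, 0.0428 and 0.00203). KIN1, a kinesin whose symbol has no letter, changed by 0.08 in panicles, at percentile 83.1 in wild type.

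Other panicle markers moved with the genotype as well. Of the 9 meristem and floral markers, 4 floral MADS genes fell and FZP and LOG rose, and of the 6 photosynthesis genes 4 fell in transgenic panicles and none rose. Among all probe sets 1.84% passed as lower in panicles and 1.05% as higher. The mean log2 level of the photosynthesis genes was 8.01 and 8.06 on the wild-type panicle arrays and 7.26 and 6.63 on the transgenic ones. Their part in the kinesin values was not tested.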

How the data were processed

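Transcripts of 8 rice samples, 2 arrays for each of 2 genotypes in each of 2 tissues, were analysed from the log2 expression values deposited by the authors. Per the submitters' processing notes RMA produced these log2 values. Neither its version nor whether all arrays were processed together is given in the sources used here. Of 57381 probe sets, 187 controls (123 AFFX and 64 reporter) were left out. Genes were named from the platform annotation (22436 probe sets with 1 gene, 95 with several, 34663 with none), with synonyms from the RefSeq table of a newer assembly, so no coordinates are printed. 4 members were named by the platform symbol itself and the others by a RefSeq synonym.

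One mean per group was fitted with limma 3.58.1 in R 4.3.3 (4 residual degrees of freedom, eBayes). Contrasts were two-sided, adjusted by Benjamini-Hochberg over 57194 probe sets, with a threshold of 0.05. "Rose" and "fell" refer to that test. The tissue contrasts used values quantile-normalized again over the 8 arrays. The planned description of sequence features was not made, and no sequences are printed. Members and related lists were chosen with earlier results of these data known. The members printed on every array are those that passed a genotype or difference test, the 3 highest and 3 lowest ranks per tissue in wild type, and the 3 largest tissue differences each way. On simulated data for the leaf contrast over 57194 probe sets, 51 of 100 changes of 1 and 97 of 100 changes of -2 on the log2 scale were recovered. P-values measure only the spread between these samples, and 2 arrays per group limit the precision. No scan batch is given in the sources used here. Alternatives covered normalization, a filter on dim probe sets, the arrays in the fit, the variance prior, array weights, replicate terms, probe set choice and leaving out each array. Deviations from group means of same-numbered arrays correlated with r of 0.00660 to 0.0651, so the numbers were not taken as pairs. Figures were drawn with Python 3.11.15 and matplotlib 3.10.9.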

Additional observations from a re-analysis of the deposited data

Results flagged for a closer look

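The genotype effect on KIN14K differed between the tissues: the panicle effect minus the leaf effect was -1.81 on the log2 scale (limma, adjusted p = 0.00618), with a rise in leaves and an estimate near 0 in panicles. Both transgenic leaf arrays lay above both wild-type leaf arrays. The difference passed without any one of the 8 arrays (limma, adjusted p = 0.00683 to 0.0391), and in the third, dim probe set of the gene it was -0.32 and did not pass (limma, adjusted p = 0.568).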

How the results depend on the processing

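The rise of KIN14K in leaves (1.54 to 2.07 without single arrays) and its difference between tissues passed under every alternative run on the same probe set. With only the 4 leaf arrays the rise lay just under the threshold (limma, adjusted p = 0.0486). Main counts were 1 kinesin gene higher and 1 lower in leaves, 0 and 1 in panicles, 0 and 1 for the difference, and 29 and 3 for each tissue contrast. With only the 4 leaf arrays 0 were lower in leaves and 325 probe sets were called in all (2529 in the main fit). In panicles 2 were lower with array medians set equal, 3 with the filter on dim probe sets, 4 with 1 probe set per gene (726 called in all, 1652 in the main fit) and 6 with array weights, which also gave 1 higher and 2807 in all. With only the 4 panicle arrays 0 were lower and 692 were called in all. The replicate block gave 1 higher (KIN14B) and 0 lower in panicles (KIN14F, limma, adjusted p = 0.0567) and changed no kinesin call in leaves or for the difference. For the difference 2 were lower (KIN14K and KIN7J) after quantile normalization again, with the filter and with 1 probe set per gene. With values as deposited 0 kinesin genes were lower in wild-type panicles than in leaves and 1 (KIN14K) in the overexpressor; values were then 0.89, 1.31 and 0.71 for KIN14K, KIN14L and KIN14M in wild type, and 1.16 and 0.89 for KIN14L and KIN14M in the overexpressor. The dim probe set of KIN14K gave 0.86 for the wild-type tissue difference. With 1 probe set per gene 15401 were called between tissues in wild type (44003 in the main fit) and 15488 in the overexpressor (43833), since fewer were tested. The cause of the other changes was not tested. Alternatives for the tissue contrast in the overexpressor were chosen after seeing the data.

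Without single arrays the ranges were 1 to 2 higher, 0 to 1 lower and 1051 to 3292 in all in leaves, with a median over the kinesin genes of -0.14 to 0.07; 0 higher, 0 to 1 lower and 420 to 1645 in all in panicles, with a median of -0.35 to -0.25; and 1 to 2 lower and 630 to 2670 in all for the difference (KIN7A was the second without wild-type leaf replicate 2). The tissue counts stayed at 29 and 3, with 39927 to 43996 and 40759 to 44721 called in all. Leaf values below the array median limit what falls in leaves could be seen.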
